A study of Mus musculus with 2 samples.

Results

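G2/M cells are cells between the end of DNA replication and the completion of mitosis. Here the name stands for a class of cells with a high score of mitotic transcripts, compared with a class named non-cycling on the same plates. The G2/M class also takes in cells with few mitotic markers, and most of its cells carry replication transcripts. The members were chosen from the transcript counts themselves. On each of 2 plates of single cells, a G2/M score was taken as the mean standardised log2(CPM + 1) of 6 mitotic genes (Top2a, Mki67, Cenpf, Ccnb1, Plk1 and Cdc20), where CPM is the counts of a gene scaled to a fixed total per cell, and an S score was taken in the same way from 6 replication genes (Mcm3, Mcm5, Mcm6, Pcna, Cdc6 and Ccne2). Cells in the top 20% of the G2/M score of their plate formed the G2/M class, and cells below the plate median of both scores formed the non-cycling class. The G2/M class held 77 cells on each plate, 154 of the 767 cells with at least 1000 detected genes. The non-cycling class held 126 cells on plate 1 and 128 on plate 2, and 359 cells fell in neither class. Because the 12 scoring genes define the classes, their levels are given below as a description and were not tested.

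The cells were mouse NIH3T3 fibroblasts, an established embryonic fibroblast line, of the derivative NIH3T3-Rev-VNP1-H2B-iRFP, which carries a Venus reporter named for the clock gene Nr1d1 and an infrared fluorescent protein fused to histone H2B. All cells came from cultures grown in 10% serum to 95% confluency, about 5 days after seeding, without synchronization. Both classes thus share the line, the reporters and the culture conditions. Cells were sorted singly into 384 wells per plate from 4 gates of Venus brightness, with 96 wells per gate, and full-length cDNA was sequenced by FLASH-seq. The cytometry records place only the high RFP sort on plate 1 and only the low RFP sort on plate 2. The sample descriptions instead give 2 iRFP bins for each plate, a conflict left unresolved here. By the records, plate and H2B-iRFP sort cannot be told apart, and each Venus gate fills the same well columns on both plates. The plate is the only replicate, and nothing in the labels says that the plates came from separate cultures. On whole plates the p-values measure the spread between these 2 plates, which may be technical. P-values within Venus gates rest on the spread over the gates of both plates, and gates are not separate cultures.

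In the cell cycle, cyclin-dependent kinases with cyclins A and B drive entry into mitosis, kinetochores attach chromosomes to the spindle, and the anaphase-promoting complex then destroys cyclins and securin so that chromosomes separate. Most genes of this machinery are transcribed late in the cycle, under the transcription factors FOXM1 and B-MYB with the MuvB core, and are silenced in resting cells by the DREAM complex. Fibroblasts that reach confluence leave the cycle reversibly, and resting fibroblasts are known as makers of extracellular matrix.

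Late cell cycle promoters are known for 2 short elements, the CCAAT box bound by NF-Y and the cell cycle genes homology region (CHR) through which the DREAM and MuvB complexes act. The letters CCAAT, and TTTGAA or TTCGAA for the CHR, were searched on both strands in RefSeq promoters of assembly GRCm38.p6, from 250 bases before to 50 after each annotated start. Of the 115 genes in 6 lists of mitotic genes, 96 matched 111 promoters, of which 61.3% held a CCAAT box, 58.6% a CHR-like match and 43.2% both. Over all 32851 promoters the shares were 37.4%, 19.2% and 7.52%. Promoters of the mitotic genes that were called higher by at least 4 on the log2 scale (53 promoters of 49 genes) held CHR-like letters in 71.7% of cases. Promoters of replication genes resembled the whole set in CHR-like letters (20% of 35 promoters) and the mitotic lists in CCAAT boxes (62.9%). Promoters of genes lower by at least 1 in G2/M cells held both in 5.59% of 304 cases. A match describes letters and does not show binding. All 6 scoring genes matched CCAAT in this window and 5 of 6 (83.3%) matched both. The 3 scoring genes with both matches in the 250 bases before the start are printed to show the arrangement, 5′ to 3′, with CCAAT, CHR-like letters and their reverse complements in capitals.
Top2a (chr11:99024190-99024439, minus strand, GRCm38.p6): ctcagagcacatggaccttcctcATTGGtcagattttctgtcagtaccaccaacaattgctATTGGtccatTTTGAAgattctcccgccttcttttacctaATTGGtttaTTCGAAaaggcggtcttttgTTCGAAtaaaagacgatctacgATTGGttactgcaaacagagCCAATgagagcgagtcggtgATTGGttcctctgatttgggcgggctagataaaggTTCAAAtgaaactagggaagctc
Mki67 (chr7:135716380-135716629, minus strand, GRCm38.p6): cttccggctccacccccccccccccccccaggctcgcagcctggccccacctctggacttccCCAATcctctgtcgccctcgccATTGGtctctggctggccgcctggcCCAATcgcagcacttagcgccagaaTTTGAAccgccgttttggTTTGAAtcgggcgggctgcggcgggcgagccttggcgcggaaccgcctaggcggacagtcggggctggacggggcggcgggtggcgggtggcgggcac
Cdc20 (chr4:118437344-118437593, minus strand, GRCm38.p6): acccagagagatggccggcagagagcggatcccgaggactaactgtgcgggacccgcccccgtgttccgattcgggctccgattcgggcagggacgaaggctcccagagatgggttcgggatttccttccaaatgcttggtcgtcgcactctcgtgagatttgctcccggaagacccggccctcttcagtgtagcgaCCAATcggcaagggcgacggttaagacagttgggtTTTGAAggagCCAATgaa
Top2a held 6 CCAAT boxes and 4 CHR-like matches, Mki67 held 3 and 2, and Cdc20 held 2 and 1.

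Counts were summed over the cells of each class on each plate, which gave 4 sums of 64413851 to 106725447 counts. The median G2/M cell held 834131 counts on plate 1 and 857719 on plate 2, against 841478 and 833190 in non-cycling cells, so depth per cell differed by less than 3% between the classes. G2/M cells had more detected genes, with medians of 11265 and 11311 against 10914 and 10948.5. After every cell was thinned to 100000 counts the medians were 8560 and 8592.5 against 8375.5 and 8442. All 10 fibroblast markers were detected in the non-cycling sums, and the 10 made up 15254 to 21374 CPM of each sum. Of 16 markers of epithelial, immune, endothelial, neural, muscle and fat cells, 13 were found in the table, 5 to 7 of them at 0 in any 1 sum, and together they made up 21.3 to 46.9 CPM. No cell name was shared between plates, and no doublet caller was run on the sorted cells.

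The scoring genes separated the classes on both plates. Top2a, the topoisomerase that untangles replicated chromosomes, stood at 249 and 306 CPM in G2/M cells of plates 1 and 2 and at 4.47 and 6.27 CPM in non-cycling cells. Cyclin B1 (Ccnb1), the mitotic cyclin, stood at 106 and 135 CPM against 0.272 and 0.171. Plk1, the polo-like kinase of mitotic entry, stood at 69.6 and 87.6 CPM against 0.00971 and 0.105. In all 3 genes the lowest G2/M sum was far above the highest non-cycling sum, as the rule requires. Mki67, which coats mitotic chromosomes and is the usual proliferation marker, reached 128 and 133 CPM against 0.524 and 0.895. Cenpf, a kinetochore protein, reached 81.9 and 121 CPM against 0.204 and 0.352. Cdc20, the activator of the anaphase-promoting complex, reached 191 and 326 CPM against 3.47 and 2.696.

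The threshold fell at a low score on plate 1. The last cell inside the class scored 0.0116 and the next outside 0.00838 on plate 1, against 0.217 and 0.211 on plate 2. At 10 CPM or more, all 6 markers were present in 33 of 77 G2/M cells on plate 1 and 43 of 77 on plate 2, and 2 or fewer were present in 31 and 8 cells. No non-cycling cell held 3 or more (0 of 254, which allows a share of up to about 1.18%). That limit is approximate, taken as 3 divided by the number of cells. The class on plate 1 thus held more cells with few markers. Among G2/M cells the 6 markers varied together, with Spearman correlations over the 15 gene pairs from 0.70 to 0.90 on plate 1 and from 0.65 to 0.92 on plate 2. These correlations describe cells that share a library and were selected on the same genes.

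Most G2/M cells also carried replication transcripts. The S score exceeded the plate median in 67 of 77 G2/M cells on plate 1 and 69 of 77 on plate 2, although the class was cut on the G2/M score alone. Among the S scoring genes, the helicase subunit Mcm5 stood at 51.7 and 45.0 CPM in G2/M cells against 0.165 and 0.210 in non-cycling cells. Cdc6, which loads the helicase, stood at 15.7 and 18.5 CPM against 0.0486 and 0. Pcna, the sliding clamp, showed the smallest gap, at 43.2 and 44.5 CPM against 11.6 and 10.8. Mcm3 and Mcm6, also helicase subunits, stood at 85.3 to 128 CPM against 5.03 to 10.8, and Ccne2, the cyclin E2 gene, at 8.94 and 8.06 against 1.02 and 1.28. Low S genes in the non-cycling class follow from its definition.

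Outside the scoring genes, 17561 genes were tested with edgeR on the 4 sums, with plate as a block, and 4358 (24.8%) passed an adjusted p of 0.05. Of the genes tested, 2252 (12.8%) were higher and 2106 (12%) lower in G2/M cells. All 4358 moved the same way on each plate alone, which follows largely from the call. Genes with opposite signs on the 2 plates could hardly pass. Most changes were moderate, with a median log2 fold change of 0.61 among genes called higher and -0.53 among those called lower, and 724 rose and 386 fell by at least 1 on the log2 scale. The fit has 1 residual degree of freedom. In an exact paired permutation test of any single measure, 2 plates cannot give a two-sided p below 0.5, so the calls rest on the spread that edgeR shares across genes. The sums do not separate fewer cells with a transcript from less of it in each cell; shares of cells are given below for the genes with the largest changes.

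Of 114 other G2/M genes tested, 99 rose and none fell, with a median log2 fold change of 4.07 against -0.01 over all genes tested. These genes vary with the scoring genes in the same cells, so their direction checks the label of the class and is no independent evidence. All 20 mitotic cyclins and kinases rose, with a median of 5.47. Ccna2, the cyclin of S phase and G2, stood at 137 and 187 CPM in G2/M cells of plates 1 and 2 and at 0.418 and 0.724 CPM in non-cycling cells, a log2 fold change of 8.15 (SE 0.12, adjusted p = 4.03e-08). Bub1, a spindle checkpoint kinase, stood at 55.8 and 70.5 CPM against 0.175 and 0.181, and the mitotic kinase Pbk at 37.6 and 49.2 against 0.165 and 0.162. Aurka, the Aurora A kinase of centrosomes, stood at 60.8 and 76.6 CPM against 1.62 and 1.21 (log2 fold change 5.59). For Cdc25c, the phosphatase that activates Cdk1, the sums were 25.4 and 44.9 CPM against 0.0777 and 0.0191. In each of these genes the classes did not overlap, which follows largely from picking the largest changes.

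Of 18 kinetochore and chromosomal passenger genes, 17 rose (median 5.34). Birc5, the passenger protein survivin, stood at 195 and 262 CPM in G2/M cells against 1.52 and 1.72 (log2 fold change 7.13, SE 0.11, adjusted p = 4.03e-08). Cenpa, the histone variant that marks centromeres, stood at 173 and 263 CPM against 1.47 and 2.61. Nuf2 and Ndc80, which bind microtubules, stood at 47.9 to 82.7 CPM against 0.117 to 0.457. Zwint, another outer kinetochore gene, differed from the rest of its list: it stood at 134 and 130 CPM in G2/M cells and at 123 and 109 CPM in non-cycling cells, and did not pass the test (log2 fold change 0.19, adjusted p = 0.0949). Zwint did pass with the top 10% of the score (0.45, adjusted p = 0.0119) and after thinning (0.31, adjusted p = 0.00569). All 28 spindle, kinesin and cytokinesis genes rose, with the highest list median, 6.20. Hmmr, a spindle and hyaluronan-binding protein, stood at 105 and 143 CPM against 0.214 and 0.0953, and Nusap1, which bundles spindle microtubules, at 104 and 112 against 0.204 and 0.0953. The kinesin gene Kif4 stood at 23.7 and 36.3 CPM against 0.0389 and 0.0476. Dlgap5, a spindle assembly factor, stood at 33.7 and 52.9 CPM against 0.0194 and 0.152.

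Other large rises came from the same machinery. The kinesin gene Kif20a, needed for cytokinesis, stood at 108 and 167 CPM in G2/M cells and at 0.903 and 0.648 CPM in non-cycling cells, and Cenpe, a kinetochore kinesin, at 85.5 and 119 against 0.894 and 1.26. Anln, a scaffold of the contractile ring, stood at 121 and 189 CPM against 2.99 and 2.86, and Tpx2, which activates Aurora A, at 132 and 185 against 3.08 and 3.66. Replication was also represented: Pclaf, a PCNA-binding protein, stood at 102 and 162 CPM against 0.690 and 2.15, and Tk1, thymidine kinase, at 77.3 and 84.9 against 0.544 and 1.35. Log2 fold changes of these 6 genes ranged from 5.54 for Tpx2 to 7.44 for Kif20a, and each passed the test.

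**Figure D1:**
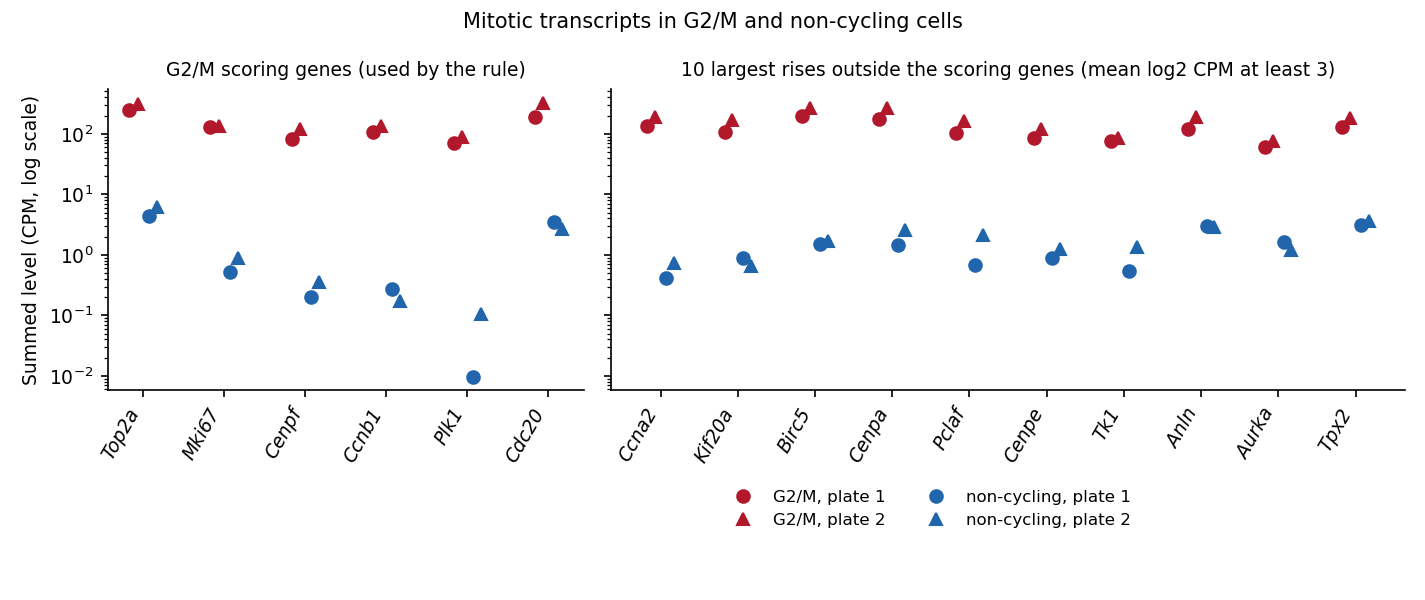
Level of the 6 scoring genes (left) and of the 10 genes with the largest rises with a level of 3 or more in mean log2 CPM (right), in CPM on a log scale. Each point is the sum over the cells of a class on 1 plate: red marks G2/M, blue non-cycling cells, circles plate 1 and triangles plate 2. In every gene both red points lie above both blue points, as the choice of genes largely requires. All 10 genes on the right reach 60.8 CPM or more in G2/M cells and at most 3.66 CPM in non-cycling cells.

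The number of cells that carried these rises differed by gene and plate. Pclaf reached 10 CPM in 54 of 77 G2/M cells on plate 1 and 74 on plate 2, Kif20a in 46 and 71, and Cenpa in 48 and 71. Ccna2 reached 10 CPM in 41 of 77 G2/M cells on plate 1 (53.2%, 95% exact binomial interval 41.5 to 64.7%) and in 55 of 77 on plate 2 (71.4%, 59.997 to 81.2%). Among non-cycling cells it reached 10 CPM in 0 of 126 (same interval, 0 to 2.89%) and 2 of 128. Birc5 reached it in 54 and 69 G2/M cells against 5 and 3 non-cycling cells. Aurka reached it in only 34 and 38 G2/M cells, the fewest of the 10 genes with the largest rises. The following split uses the scoring genes, with which Ccna2 varies in the same cells, and is a description only. In the 44 and 61 G2/M cells with at least 4 of the 6 markers the summed Ccna2 level was 233 and 241 CPM. In the cells with 2 or fewer markers, 31 on plate 1 and 8 on plate 2, it was 3.02 and 5.04 CPM. Intervals here cover counting error only.

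Chromatin, ubiquitin and control genes changed less evenly. All 20 condensin, cohesion and chromatin genes rose (median 2.53). Pttg1, securin, stood at 164 and 254 CPM in G2/M cells against 5.21 and 6.62 in non-cycling cells, and Espl1, the separase that securin holds back, at 17.0 and 25.6 against 0.185 and 0.181. The condensin subunit genes Ncapg and Ncaph stood at 33.6 to 58.9 CPM against 0.408 to 1.21. Against 12.8% of all genes tested called higher, 9 of 16 genes of the anaphase-promoting complex and its ubiquitin enzymes rose. None of the 16 fell, and their median was 0.35. The enzyme gene Ube2c accounted for the top of that list, at 189 and 202 CPM against 4.56 and 5.33, followed by the inhibitor gene Fbxo5 at 22.8 and 27.4 CPM against 1.52 and 1.39. The activator gene Fzr1 rose less, from 49.7 and 45.3 CPM in non-cycling cells to 76.6 and 78.5 CPM in G2/M cells (log2 fold change 0.71, adjusted p = 6.85e-04). Core subunits did not pass the test in 2 named cases: Anapc2 stood at 250 and 262 CPM against 238 and 237, and Cdc16 at 92.5 and 85.3 against 104 and 105.

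Of 12 genes of FOXM1, B-MYB and the DREAM complex, 5 rose and none fell (median 0.31), against 12.8% of all genes tested called higher. Mybl2, which encodes B-MYB, stood at 12.8 and 13.5 CPM in G2/M cells against 0.243 and 0.0381, and Foxm1 at 32.3 and 59.6 CPM against 1.62 and 1.68 (log2 fold change 4.74, adjusted p = 3.08e-06). Rbl1, which encodes p107, rose from 4.88 and 4.60 CPM to 16.8 and 20.2 CPM, and the MuvB subunit gene Lin9 from 5.604 and 4.79 to 10.5 and 11.4. The fifth was Tfdp1, an E2F partner (log2 fold change 0.44). Rbbp4, a shared histone-binding subunit, stood at 282 and 263 CPM against 268 and 257, and E2f4, the repressor E2F of resting cells, at 46.0 and 48.7 against 40.7 and 42.8, neither passing the test (adjusted p = 0.585 and 0.141).

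Of 43 replication genes outside the 6 scoring genes, 42 rose and none fell, with a median of 2.31. Of all genes tested, 12.8% were called higher. Rad51ap1, Brip1 and Exo1, genes of DNA repair by recombination, stood at 10.5 to 16.4 CPM in G2/M cells and at 0.0572 to 0.282 CPM in non-cycling cells. Ccne1, cyclin E1, was the exception at the threshold, at 21.2 and 15.4 CPM against 13.7 and 13.2 (log2 fold change 0.43, adjusted p = 0.0523), and passed within Venus gates (adjusted p = 0.0487). As with the S score, low levels in the non-cycling class are partly fixed by its definition.

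Genes of G1 control and quiescence fell more often than they rose. Of 21 tested, 13 fell and 3 rose, with a median log2 fold change of -0.45. Txnip, a thioredoxin inhibitor that also limits glucose uptake, stood at 61.6 and 57.4 CPM in G2/M cells and at 171 and 175 CPM in non-cycling cells, a log2 fold change of -1.54 (SE 0.07, adjusted p = 7.06e-06). Pdcd4, which restrains translation, stood at 60.5 and 54.1 CPM against 112 and 113, and Ccng2, a cyclin raised in resting cells, at 33.7 and 29.4 against 57.9 and 62.9. The rises were Ccnd1, Cdkn2d and Ccng1. Ccnd1, the G1 cyclin D1, stood at 82.4 and 75.4 CPM against 21.5 and 28.9 (log2 fold change 1.66, adjusted p = 9.94e-05). The CDK inhibitor genes Cdkn1a and Cdkn1b, which encode p21 and p27, did not pass the test: Cdkn1a stood at 201 and 171 CPM against 194 and 140, and Cdkn1b at 156 and 168 against 148 and 153. Their adjusted p-values were 0.158 and 0.334.

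Extracellular matrix transcripts were lower in G2/M cells. Of 31 collagen and matrix genes tested, 24 fell and 1, Timp1, rose, with a median of -0.66. Biglycan (Bgn), a small proteoglycan, stood at 1936 and 1287 CPM in G2/M cells and at 4593 and 3905 CPM in non-cycling cells, a log2 fold change of -1.42 (SE 0.08, adjusted p = 2.21e-05). Col8a1, a short-chain collagen, stood at 58.0 and 42.7 CPM against 141 and 110, and periostin (Postn) at 0.762 and 0.788 against 3.70 and 4.87. Lumican (Lum) was listed at 0 and 0.0303 CPM in G2/M cells and at 0.641 and 0.286 CPM in non-cycling cells, too low for a fold. Timp2, a protease inhibitor, and Col6a3, a collagen VI chain, did not pass the test, at 1573 and 1459 CPM against 1798 and 1579 for Timp2 and at 679 and 581 against 766 and 670 for Col6a3. Within Venus gates both fell and passed (adjusted p = 0.00947 for Timp2 and 0.0364 for Col6a3). There 26 of 29 matrix genes fell, against 18.0% of all genes tested called lower.

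Fibroblast markers followed the matrix genes with which they overlap: of 10, 8 fell and 1, vimentin (Vim), rose. Decorin (Dcn) stood at 30.9 and 21.9 CPM against 77.0 and 54.4, the collagen III gene Col3a1 at 663 and 701 against 1480 and 1705, and Thy1, a surface marker, at 53.7 and 41.6 against 95.3 and 67.5. S100a4 stood at 617 and 640 CPM against 568 and 591 and did not pass the test. Beside these falls, 2 of 6 tested markers of other cell types rose: the cadherin gene Cdh1 stood at 4.70 and 10.1 CPM against 2.19 and 3.07, and the keratin gene Krt14 at 37.1 and 34.0 against 26.8 and 16.9. Over all genes tested, 12.8% were called higher. With all other cells as the comparator neither Cdh1 nor Krt14 passed (adjusted p = 0.0746 and 0.438). Their part in the matrix result was not tested.

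The 10 largest falls, above the same minimum level, were led by Aspn, the matrix proteoglycan asporin. It stood at 24.5 and 9.69 CPM in G2/M cells of plates 1 and 2 and at 154 and 190 CPM in non-cycling cells (log2 fold change -3.44, SE 0.33, adjusted p = 3.04e-04). Apod, the lipid carrier apolipoprotein D, stood at 7.40 and 7.94 CPM against 23.7 and 35.7, and Clec3b, tetranectin, at 17.3 and 11.3 against 42.6 and 60.7. Deptor, an inhibitor of mTOR, stood at 7.37 and 7.20 CPM against 21.7 and 30.2. Agt, angiotensinogen, stood at 19.4 and 8.79 CPM against 43.6 and 46.8, and the complement protease gene C1s1 at 12.7 and 6.80 against 26.5 and 43.1. Marcksl1, an actin-linked membrane protein, stood at 21.7 and 26.1 CPM against 73.1 and 76.0. Itga11, an integrin that binds collagen, stood at 9.05 and 4.95 CPM against 21.5 and 19.5, and Ogn, the proteoglycan osteoglycin, at 23.6 and 19.1 against 58.8 and 69.8. Txnip completed the set. In all 10 genes both G2/M sums were below both non-cycling sums, which follows largely from how the genes were picked.

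**Figure D2:**
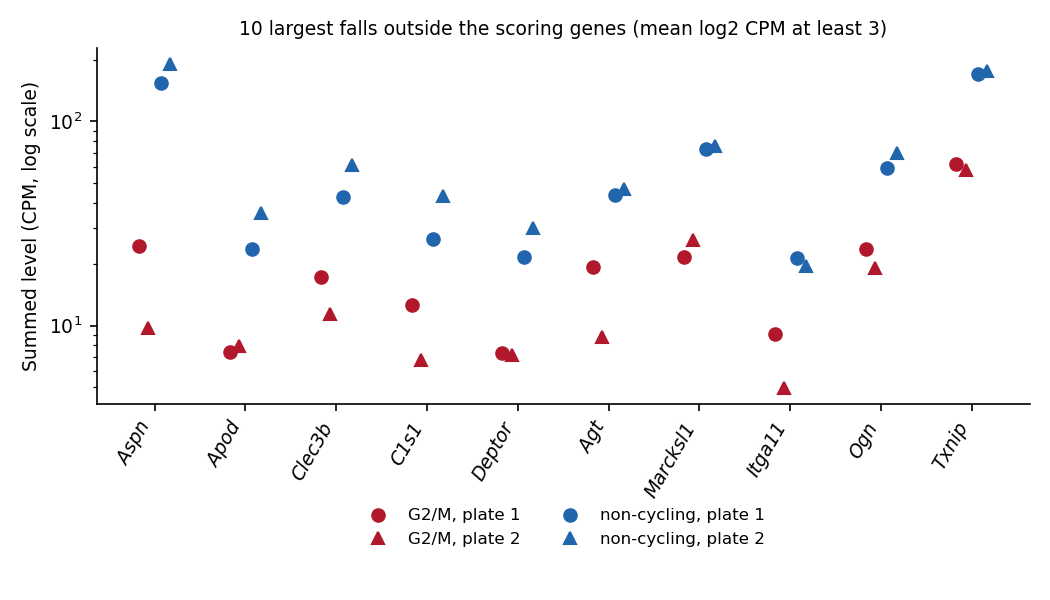
Level of the 10 genes with the largest falls, in CPM on a log scale. Each point is the sum over a class on 1 plate: red marks G2/M, blue non-cycling cells, circles plate 1 and triangles plate 2. Red points lie below blue points in every gene, as the choice of genes largely requires. The gap is widest for Aspn (24.5 and 9.69 against 154 and 190 CPM).

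Each of the 10 transcripts still reached 10 CPM in some G2/M cells. Aspn reached 10 CPM in 14 of 77 (18.2%) and 13 of 77 (16.9%) G2/M cells on plates 1 and 2, in 78 of 126 (61.9%) and 81 of 128 (63.3%) non-cycling cells, and in 79 of 180 and 66 of 179 of the cells between the classes. The cells between the classes were not intermediate in every case: on plate 1 Ogn reached 10 CPM in 42.9% of G2/M, 58.3% of in-between and 55.6% of non-cycling cells. Marcksl1 reached it in 46 and 48 G2/M cells and in 111 and 117 non-cycling cells. Txnip was near universal, in 64 and 66 G2/M cells and in 126 and 126 non-cycling cells, with medians of 43.3 and 47.5 CPM against 152 and 156 CPM. Split by the scoring genes, as a description, the G2/M cells of plate 1 with 2 or fewer markers held 52.5 CPM of Aspn and those with 4 or more held 5.85 CPM. On plate 2 the same groups held 12.8 and 7.65 CPM. Counts for Aspn and Ogn overlap the annotated gene Cenpp, and whether counting used strand is not given in the sources used here, so these values are uncertain in part. The same holds, each with another overlapping gene, for Ccna2, Kif20a, Pclaf, Tk1, Anln, Aurka, Cdc20, Nusap1, Ncapg, Foxm1, Ccne2, Ccnd1, Pdcd4, Timp2, Fosl1, Rbbp4, Nr1d1, Dbp and Per3.

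Contractile, p53 and growth-response genes were mixed. Of 16 contractile and SRF genes, 6 rose and none fell (median 0.15), against 12.8% of all genes tested called higher and 12% lower. The actin-binding gene Tagln2 stood at 254 and 280 CPM in G2/M cells against 120 and 110 (log2 fold change 1.22, adjusted p = 4.72e-05), and smooth muscle actin (Acta2) at 241 and 169 against 151 and 116. Acta2 did not pass within Venus gates (adjusted p = 0.113) or without the plate block (0.0590). Tpm4, a tropomyosin, and Cnn2, a calponin, rose by 0.54 and 0.36 on the log2 scale, and Cnn2 did not pass with all other cells as the comparator (adjusted p = 0.109). Actg1 and Flna, which encode an actin and filamin A, did not pass the test (adjusted p = 0.417 and 0.0777), although Flna passed within gates (0.0163). Of 18 YAP/TAZ targets, 8 fell and 1, Axl, rose. Among them Ccn2, connective tissue growth factor, stood at 29.4 and 10.97 CPM against 57.3 and 36.2, Rbms3 at 12.3 and 12.3 against 22.8 and 30.7, Gadd45a at 35.0 and 35.6 against 60.7 and 62.5, and Tgfb2 at 0.451 and 0.788 against 3.25 and 2.19. Without the plate block Ccn2 did not pass (adjusted p = 0.0905). Amotl2 and Foxf2 did not pass.

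Of 19 p53 targets, 6 rose and 3 fell, and within gates 4 and 3 of 18. All genes tested were called in 24.8% of cases on whole plates and in 36.4% within gates. Those that fell were Btg2, Plk2 and Trp53inp1: Plk2, a stress-induced polo-like kinase, stood at 95.5 and 85.1 CPM in G2/M cells against 181 and 151. Aen, a nuclease, rose from 19.5 and 17.4 to 34.1 and 32.8 CPM, whereas Mdm2, the p53 ubiquitin ligase, stood at 80.5 and 77.2 CPM against 87.8 and 77.4 (adjusted p = 0.593). Of 20 immediate early genes, 9 fell and 5 rose. Fos stood at 17.3 and 11.6 CPM against 38.3 and 38.2, and Fosb at 4.93 and 2.26 against 9.48 and 9.79. Fosl1, which encodes the family member FRA1, went the other way, at 3.17 and 5.21 CPM against 0.563 and 0.610 (log2 fold change 2.80, adjusted p = 3.44e-04), as did Atf3 at 5.44 and 3.32 against 1.83 and 1.35. Fosl1 reached 10 CPM in only 9 and 8 G2/M cells and in 1 and 3 non-cycling cells. The others that rose were Jun, Nr4a1 and Klf4. Myc and Dusp1 did not pass.

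**Figure D3:**
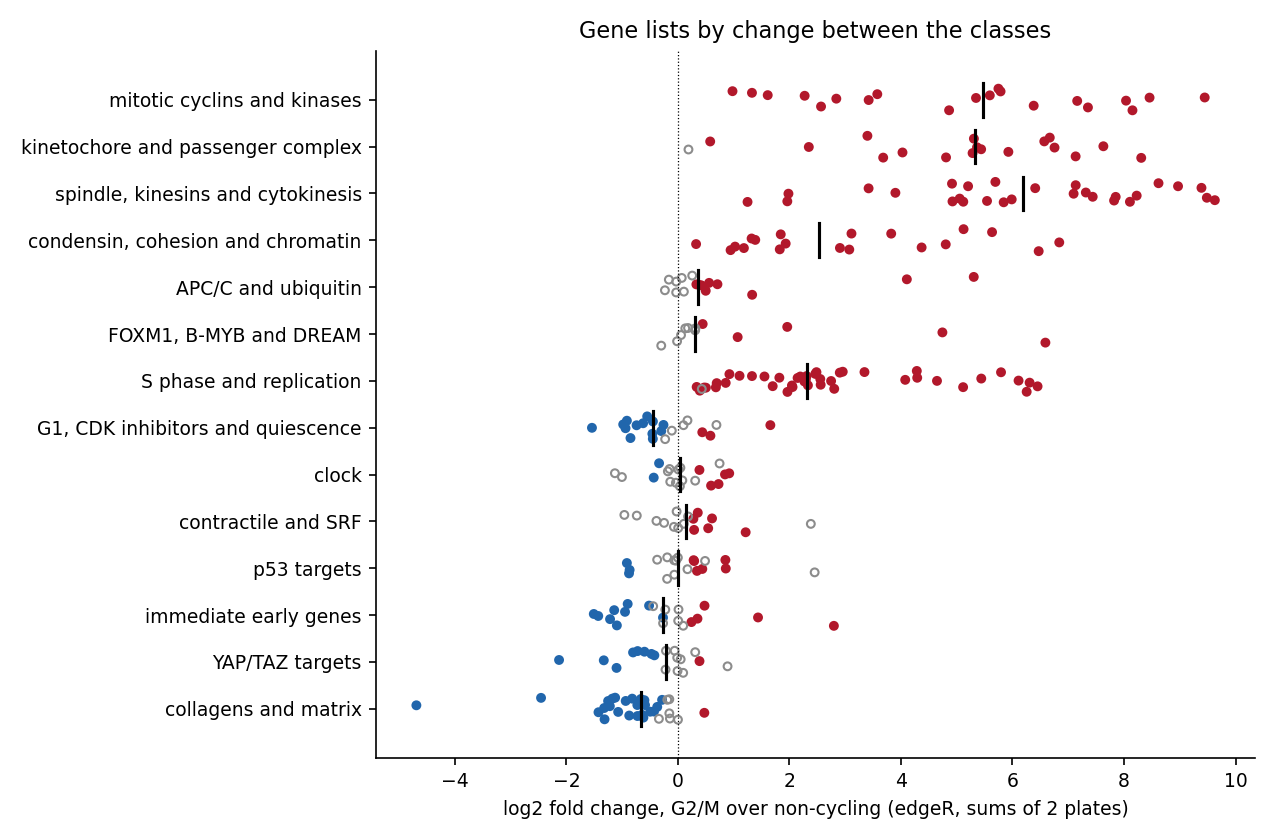
Log2 fold change of G2/M over non-cycling cells for the genes of the lists described, without the scoring genes; each dot is a gene, filled red or blue where it passed the test in the direction shown and open where it did not, and the black bar is the list median. The mitotic lists at the top reach medians of 2.53 to 6.20, while collagens and matrix at the bottom lie mostly left of 0 with a median of -0.66.

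Mitochondrial and ribosomal transcripts were slightly lower. The median mitochondrial share of counts was 8.34% in G2/M cells and 9.89% in non-cycling cells of plate 1, and 6.66% and 8.10% on plate 2, and it was lower in G2/M cells in 8 of 8 combinations of plate and Venus gate. That share counts every mitochondrially encoded feature, whereas the 13 mitochondrial mRNAs alone made up 3.76 to 4.35% of each class sum. Of these 13 mRNAs, 6 fell and none rose. Cytochrome b (mt-Cytb) stood at 7531 and 7179 CPM against 9735 and 9848 (log2 fold change -0.41, adjusted p = 9.50e-04). Of 75 cytosolic ribosomal protein genes tested, 33 fell and 1 rose, with a median of -0.17. Rps27 stood at 818 and 652 CPM against 1076 and 936, and Rps4x, at 5865 and 5358 against 5889 and 6089, did not pass the test. The part of the mitochondrial and ribosomal transcripts in the other results was not tested.

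G2/M cells were not spread evenly over the Venus gates. The gates are numbered from the dimmest (1) to the brightest (4). On plate 1 the class took 8 of 95 cells in gate 1 (8.42%, 95% exact interval 3.71 to 15.9%), 16 of 96 in gate 2 (16.7%), 21 of 96 in gate 3 (21.9%) and 32 of 96 in gate 4 (33.3%, 24.0 to 43.7%). On plate 2 it took 15, 14 and 13 of 96 cells in gates 1 to 3 (15.6%, 14.6% and 13.5%) and 35 of 96 in gate 4 (36.5%, 26.9 to 46.9%). The brightest gate held the largest share on both plates. The intervals cover counting error over the cells of 1 plate, and no test over plates was run. Scored on thinned counts, the shares in gates 1 and 4 of plate 2 were 16.8% (9.94 to 25.9%) and 31.9% (22.7 to 42.3%), with overlapping intervals. Non-cycling cells were fewest there, with 18 and 20 cells in gate 4 against 35 and 36 in gate 1. With the top 10% of the score, the shares in gates 1 and 4 were 6.32% and 18.8% on plate 1 and 11.5% and 12.5% on plate 2, so on plate 2 the difference rests on the cells between the top 10% and the top 20%.

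**Figure D4:**
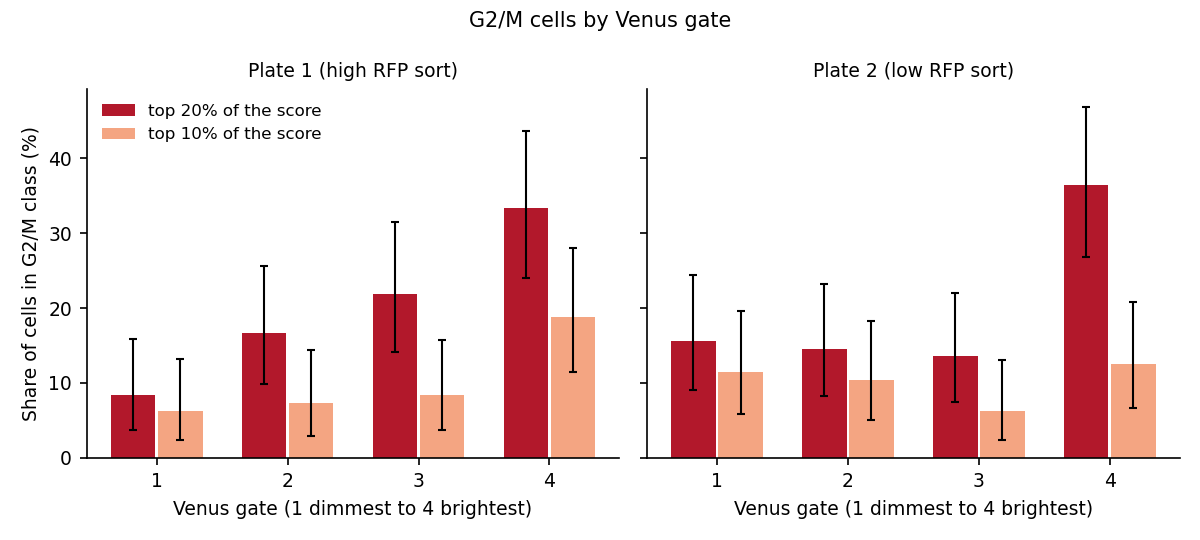
Share of the passing cells of each Venus gate that fell in the G2/M class (y axis, percent) by gate from dimmest to brightest (x axis), on plate 1 (left) and plate 2 (right). Dark bars use the top 20% of the score and light bars the top 10%; error bars are 95% exact binomial intervals of cells. The dark bar of gate 4 is tallest on both plates (33.3% and 36.5%), whereas the light bar of gate 4 on plate 2 (12.5%) is close to that of gate 1 (11.5%).

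Venus fluorescence followed the gates. The median was 11108800 arbitrary units in G2/M cells and 3535510 in non-cycling cells of plate 1, and 13536500 and 3101710 on plate 2, or 1.65 and 2.13 on the log2 scale. Inside a gate, where the sort itself limits the Venus range, the classes were close. The log2 ratios ran from -0.13 to 0.43 over the 8 combinations of plate and gate, 6 of them above 0, with a median of 0.10. The Venus transcript stood at 385 and 442 CPM in G2/M cells against 231 and 193 in non-cycling cells (log2 fold change 0.97, SE 0.11, adjusted p = 5.82e-04). With plate and Venus gate as a block, over 16 sums of 6178097 to 34870869 counts, its log2 fold change was 0.08 (adjusted p = 0.609). Within gates on each plate alone it was -0.15 on plate 1 and 0.29 on plate 2, given without a test because gates of 1 plate are not replicates. Over these 16 sums, 13420 genes were tested, 4882 (36.4%) passed, 2469 (18.4%) higher and 2413 (18.0%) lower, and 3764 passed in both fits, all in the same direction.

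The rule used none of the clock genes, and their calls are given here on whole plates and within Venus gates. The mammalian clock is a loop in which BMAL1 (Arntl) and CLOCK activate the Period, Cryptochrome and Rev-erb genes (Nr1d1 and Nr1d2) together with output factors such as Dbp and Tef, whose products then repress or modulate the loop. Of 19 clock genes tested on whole plates, 5 rose and 2 fell, with a median of 0.04. Of 17 tested within gates, none rose and 5 fell, with a median of -0.10. The difference between the fits was not tested. On whole plates the split was 5 rises and no fall without composition scaling, and 6 rises and no fall with DESeq2. A count of 7 in 19 is to be read against the 24.8% of all genes called on whole plates, and 5 in 17 against 36.4% within gates.

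The Rev-erb genes rose on whole plates. Nr1d1 stood at 721 and 764 CPM in G2/M cells of plates 1 and 2 and at 467 and 366 CPM in non-cycling cells, a log2 fold change of 0.85 (SE 0.10, adjusted p = 8.92e-04). Its paralogue Nr1d2 stood at 24.7 and 31.8 CPM against 17.9 and 19.2 (0.60, adjusted p = 0.00672). With the top 10% of the score the Nr1d2 change was 0.39 and did not pass (adjusted p = 0.0536). For both genes the lower G2/M sum exceeded the higher non-cycling sum, as is likely in genes that pass the test. The share of all genes with this order was not counted. The gates were set on Venus, a reporter named for Nr1d1, so a fixed gate narrows the range of Nr1d1 in advance. Within gates the log2 fold changes were 0.07 for Nr1d1 (adjusted p = 0.605) and 0.01 for Nr1d2 (adjusted p = 0.944). Within gates on plates 1 and 2 alone they had opposite signs, at -0.060 and 0.19 for Nr1d1 and at -0.088 and 0.11 for Nr1d2. Nr1d1 was higher in G2/M cells in 6 of 8 combinations of plate and gate, with log2 ratios between -0.52 and 0.37. Its level climbed with the gate in both classes: on plate 2 it was 78.8, 226, 626 and 1308 CPM in G2/M cells of gates 1 to 4, and 78.2, 223, 484 and 1022 CPM in non-cycling cells.

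The output factors Dbp and Tef went the other way inside gates. On whole plates Dbp, a PAR-domain transcription factor, stood at 42.2 and 43.4 CPM in G2/M cells and at 40.2 and 45.0 in non-cycling cells (log2 fold change 0.01, adjusted p = 0.948). Within gates it fell by 0.78 on the log2 scale (SE 0.12, adjusted p = 3.68e-04) and was lower in G2/M cells in 8 of 8 combinations of plate and gate. On plate 1 its levels in G2/M cells of gates 1 to 4 were 9.67, 11.6, 38.9 and 67.7 CPM, against 18.7, 24.1, 61.6 and 75.3 CPM in non-cycling cells. On plate 2 they were 11.6, 10.7, 34.8 and 72.3 against 23.0, 26.9, 66.3 and 91.6. Each plate's gate pairs kept this order, and on the log2 scale the gap was narrowest in the brightest gate. Within gates on each plate alone, Dbp fell by 0.68 on plate 1 and by 0.88 on plate 2. These values are given without a test, because the gates of 1 plate are not replicates.

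Tef, another PAR-domain factor, stood at 82.1 and 104 CPM in G2/M cells and at 80.9 and 94.7 CPM in non-cycling cells (log2 fold change 0.08, adjusted p = 0.485). With the top 10% of the score it fell on whole plates by 0.42 on the log2 scale (adjusted p = 0.0124). Within gates it fell by 0.48 (SE 0.10, adjusted p = 0.00244) and was lower in 7 of 8 combinations, the exception being gate 4 of plate 2 at 161 against 150 CPM. With the same top 10% in the 16 sums, a combination added after the data were seen, the within-gate log2 fold changes were -1.32 for Dbp and -0.97 for Tef. On plate 2 alone Tef did not pass (adjusted p = 0.066).

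Period and Cryptochrome genes, the repressors of the loop, gave smaller differences. Per2 stood at 10.2 and 12.3 CPM against 5.71 and 7.94 (log2 fold change 0.73, adjusted p = 0.00872), and within gates at 0.31 (adjusted p = 0.353). Per3 stood at 26.3 and 26.2 CPM against 35.8 and 30.7 (-0.34, adjusted p = 0.0429) and within gates fell by 0.62 (adjusted p = 0.00892). Per1 and Cry2 passed neither test. Cry1 stood at 17.6 and 21.7 CPM against 13.0 and 17.2 (0.39, adjusted p = 0.0383), and within gates at 0.29 (adjusted p = 0.0734). The Cry1 call on whole plates was lost without the low-count filter (adjusted p = 0.0754) or the plate block (0.167), after thinning (0.119), and with the top 10% (0.0700) and top 30% (0.174) of the score. The Per3 call on whole plates was lost with DESeq2 (adjusted p = 0.0544), without composition scaling (0.0631), the low-count filter (0.0703) or the plate block (0.0654), with the stricter cell filter (0.0517) and with the top 30% (0.124). Within gates on plates 1 and 2 alone, Per3 fell by 0.76 and 0.48, given without a test because gates of 1 plate are not replicates.

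In the other arms of the loop, Arntl stood at 27.5 and 28.1 CPM in G2/M cells against 34.5 and 27.5, overlapping between the classes, and did not pass on whole plates (-0.15, adjusted p = 0.389) or within gates (0.28, adjusted p = 0.144). Clock stood at 16.6 and 19.3 CPM against 18.2 and 18.5 and passed neither test. Rora, the activator that competes with Rev-erb proteins, and Bhlhe40, an E-box repressor, did not pass on whole plates. Within gates they fell by 0.44 and 0.34 (adjusted p = 0.0215 and 0.0219). Within gates on plates 1 and 2 alone the falls were 0.36 and 0.52 for Rora and 0.30 and 0.37 for Bhlhe40. These single-plate values are given without a test, because gates of 1 plate are not replicates. Nfil3, the repressor at D-box sites, stood at 13.1 and 10.7 CPM against 17.0 and 15.1 (-0.43, adjusted p = 0.0342), and within gates at -0.17 (adjusted p = 0.457). That call on whole plates was lost with DESeq2 (adjusted p = 0.0567) and without composition scaling (0.0531), the low-count filter (0.0573) or the plate block (0.0779), after thinning (0.198) and with the top 30% of the score (0.131), and with the top 10% the change was 0.12 (adjusted p = 0.596). Usp2, a clock-driven deubiquitinase gene, stood at 9.36 and 11.8 CPM against 5.49 and 5.64 (0.92, adjusted p = 0.00455), and within gates at 0.75 (adjusted p = 0.124). After thinning it did not pass (adjusted p = 0.0509). Bhlhe41 and Ciart passed neither test, and Hlf and Npas2, under 1 CPM in every sum, were tested on whole plates only and did not pass.

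**Figure D5:**
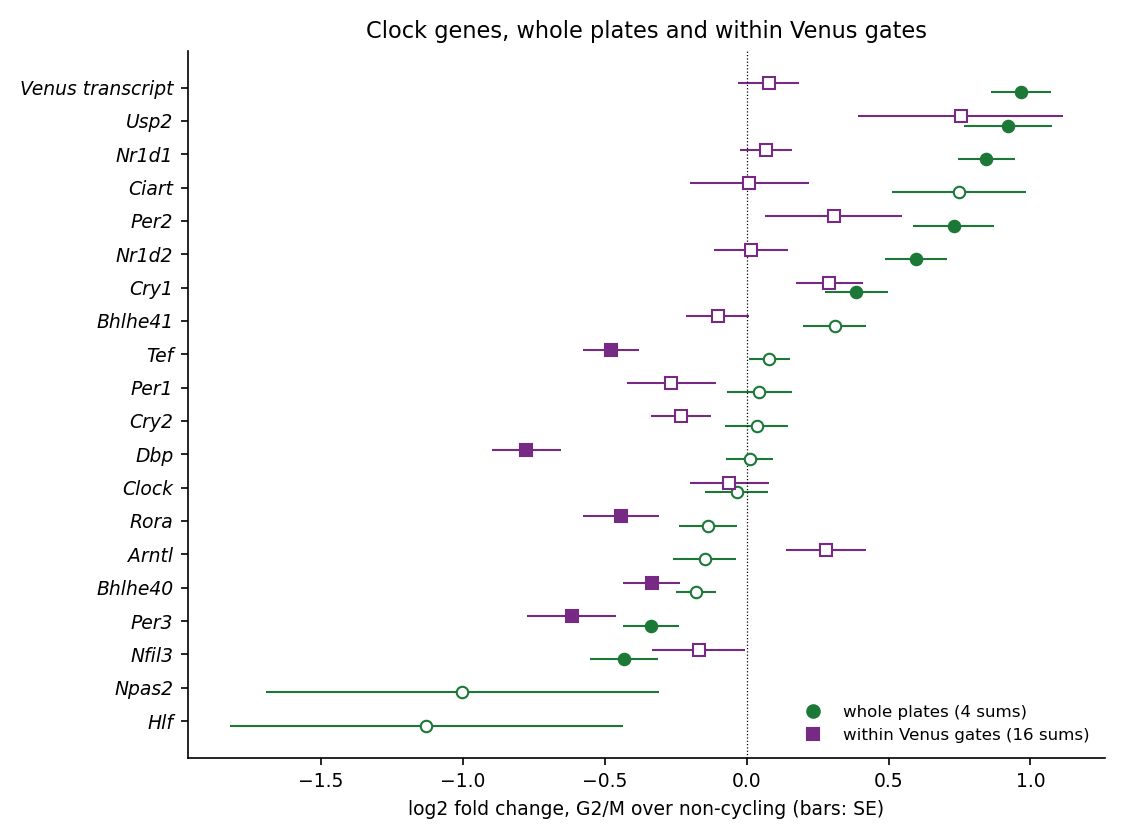
Log2 fold change of G2/M over non-cycling cells (x axis) for the clock genes and the Venus transcript, on whole plates (green circles, 4 sums) and within Venus gates (purple squares, 16 sums); bars are standard errors and filled symbols passed an adjusted p of 0.05. Nr1d1, Nr1d2 and the Venus transcript sit at 0.60 to 0.97 on whole plates and at 0.01 to 0.08 within gates. The gates were set on Venus, a reporter named for Nr1d1, which narrows the range of both in advance. Dbp and Tef move from near 0 to -0.78 and -0.48.

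Light scatter differed little. Median forward scatter area (FSC-A, a measure related to cell size) was 56895700 arbitrary units in G2/M cells and 51590100 in non-cycling cells of plate 1, and 51110700 and 49500300 on plate 2, ratios of 1.10 and 1.03. The interquartile ranges of the classes overlapped, at 45317400 to 70761800 against 44903600 to 59606900 on plate 1. Inside gates the log2 ratio ranged from -0.17 to 0.23, and G2/M cells were higher in 4 of 8 combinations. Forward scatter width, which rises in sorted doublets, had medians of 1575 and 1550 in G2/M cells and 1644 and 1568.5 in non-cycling cells.

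H2B-iRFP fluorescence, read here from the red detector whose median differed most between the plates because no channel carries the reporter's name, was 362799 and 344816 units on plate 1 and 153759 and 150398 units on plate 2 in G2/M and non-cycling cells, ratios of 1.05 and 1.02. G2/M cells were brighter in 4 of 8 combinations of plate and gate. Each plate holds a single RFP sort, which limits the range of this signal. The iRFP transcript stood at 43.1 and 21.1 CPM in G2/M cells and at 40.5 and 16.3 CPM in non-cycling cells and did not pass the test (log2 fold change 0.23, adjusted p = 0.157). It was higher in 7 of 8 combinations of plate and gate. No test was run on scatter or fluorescence, since an exact paired permutation test over 2 plates cannot give a two-sided p below 0.5.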

How the data were processed

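The raw counts per gene and cell are those the authors deposited; per the submitters' processing notes the tools were STAR 2.7.11a, SAMtools, bedtools and HTSeq with build GRCm39, and whether counting used strand is not given in the sources used here. The fluorescence and scatter intensities were deposited with the sorter's records of each cell, in arbitrary units, as was an image size score, and gates were ordered by their median Venus signal. Gene symbols were matched by identifier for 24902 of 33757 features, and features without a symbol held 1.07% of counts. The cell filter left 767 of 768 cells, with 2100 to 1618022 counts each.

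From the counts, scores, classes and sums were computed with Python 3.11.15. Sums were tested with edgeR 4.0.16 (filterByExpr, TMM composition scaling, quasi-likelihood F-test, plate as a block, Benjamini-Hochberg adjustment over all tested genes outside the scoring genes), and the fit was tested on simulated data. A fit over 16 sums blocked on plate and Venus gate, with 7 residual degrees of freedom, so gates serve there as replicates of the classes. Alternatives were DESeq2 1.42.0, no TMM, no low-count filter, no plate block, a stricter cell filter, thinning to 100000 counts, the top 10% and 30% of the score, all other cells as comparator, and each plate alone. The plate pairs the classes because both come from the same plate.

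Named genes were the 10 largest rises and falls that passed an adjusted p of 0.05, reached 3 in mean log2 CPM and had 1 sign on both plates, the scoring and clock genes, the reporters, and per list up to 4 genes that passed and up to 2 that did not. Other members were named, after their values were seen, where a count was 5 or fewer. Members and lists were chosen with earlier results of these data known, and the ribosomal list is a pattern of symbols. Coordinates are given for RefSeq promoters of GRCm38.p6 only, since the counts use another build.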

Additional observations from a re-analysis of the deposited data

How the results depend on the processing

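Across the alternatives set at the start, the number of genes called stayed within 1.5 times the 4358 of the whole-plate fit (3432 with no replicate block to 4882 within Venus gates), and the other G2/M genes called ranged from 98 to 104. Clock genes called numbered 7, and 4 without the low-count filter, 4 with no replicate block and 4 with the top 30% of the score. The log2 ratio of Venus medians, 1.89, was 1.45 after thinning, 1.17 with the top 10%, 1.25 with the top 30% and 0.10 within gates. That of forward scatter, 0.09, was 0.18 with the top 10% and 0.014 within gates. That of H2B-iRFP, 0.05, was 0.015 after thinning, 0.0012 with the top 30% and turned to -0.0047 within gates. That of genes per cell, 0.05, was 0.026 after thinning. On 1 plate the 4-sum fit has no residual degrees of freedom, so no count of calls could be given. The cause of these shifts was not tested.

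The alternatives below were chosen after seeing the data. Within gates on 1 plate alone, 1860 to 2886 genes and 1 to 2 clock genes were called. Those tests rest on the gates of that plate, which are not replicates. With the top 10% within gates, 4 clock genes were called. With only the 10 and 8 G2/M cells at or below the median S score, edgeR called 0 genes (553 at an unadjusted p under 0.05), 0 clock genes (2 unadjusted) and 0 other G2/M genes (40 unadjusted), with 18 cells behind the sums in place of 154; no other tool was run there.

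Among single genes, 1430 tested comparisons with an alternative kept direction and call, 153 lost the call, 45 gained it and 88 changed sign, of which 64 passed in neither fit. The tested comparisons include the fits within gates on 1 plate alone, whose tests rest on the gates of that plate. Another 250 single-plate values had no test, and 9 of them changed sign. The sign changes follow, as log2 fold changes. Within gates, Dbp was at -0.78, Tef at -0.48, Per1 at -0.27, Cry2 at -0.23, Arntl at 0.28, Bhlhe41 at -0.10, Actg1 at 0.015 and Myc at -0.0068. Within gates on plate 1 alone, Nr1d1 was at -0.060, Nr1d2 at -0.088, Dbp at -0.68, Tef at -0.48, Per1 at -0.49, Cry2 at -0.33, Arntl at 0.098, Bhlhe41 at -0.31, Ciart at -0.22, the Venus transcript (YFP) at -0.15, Actg1 at 0.026 and Rps4x at 0.0085. Within gates on plate 2 alone, Dbp was at -0.88, Tef at -0.48, Per1 at -0.045, Cry2 at -0.13, Arntl at 0.46, Clock at 0.12, Actg1 at 0.0038, Amotl2 at -0.014, Myc at -0.12 and Cd68 at 0.74. With the top 10%, Dbp was at -0.39, Tef at -0.42, Per1 at -0.019, Arntl at 0.098, Nfil3 at 0.12, Actg1 at 0.085, Pecam1 at -0.64 and Cd68 at 0.67. With the top 10% within gates, Nr1d2 was at -0.045, Dbp at -1.32, Tef at -0.97, Per1 at -0.30, Cry2 at -0.11, Arntl at 0.33, Nfil3 at 0.28, Bhlhe41 at -0.32, Ciart at -0.32 and Actg1 at 0.14. With the top 30%, Clock was at 0.032 and Myc at -0.048. With all other cells as comparator, Dbp was at -0.0095, Cry2 at -0.077, Mdm2 at 0.013, Myc at -0.0053 and Cd68 at 0.039. After thinning, Tef was at -0.042, Clock at 0.12, Bhlhe41 at -0.016 and Mdm2 at 0.012. Without the low-count filter, Dbp was at -8.0e-05. With the low-S cells only, where no gene passed, Tef was at -0.00014, Per1 at -0.12, Per3 at 0.0495, Cry1 at -0.65, Cry2 at -0.66, Clock at 0.31, Bhlhe40 at 0.059, Zwint at -0.29, Fbxo5 at -1.02, Fzr1 at -0.35, Anapc2 at -0.10, Cdc16 at 0.0033, Rbbp4 at -0.13, E2f4 at -0.084, Ccne1 at -0.32, Cdkn1a at -0.061, Col6a3 at 0.20, Acta2 at -0.36, Tpm4 at -0.011, Cnn2 at -0.15, Flna at -0.30, Amotl2 at -0.32, Foxf2 at 0.029, Aen at -0.20, Fosl1 at -0.94, Atf3 at -9.49, Myc at -0.071 and Pecam1 at -2.73. Depth limits low genes within gates most, where the smallest sum held 6178097 counts.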

Other observations

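Small leucine-rich proteoglycans, nuclear long noncoding RNAs and complement genes were listed after the values were seen, so their counts describe these plates and are no independent evidence. Of 9 proteoglycan genes that organise collagen fibrils, 7 fell in G2/M cells and none rose, with a median log2 fold change of -1.42. Fibromodulin (Fmod) stood at 0.871 and 0.303 CPM in G2/M cells of plates 1 and 2 and at 4.29 and 5.80 CPM in non-cycling cells (log2 fold change -3.16, adjusted p = 0.00175). At 10 CPM or more Fmod was present in 4 and 1 G2/M cells and in 9 and 15 non-cycling cells, so its sums rest on few cells. Omd, osteomodulin, stood at 6.004 and 5.09 CPM against 10.4 and 10.1. Counts for Omd overlap the annotated gene Cenpp, as those for Aspn and Ogn do, so its values are uncertain in part. Prelp, of the same family, stood at 72.8 and 90.4 CPM against 76.8 and 101 and did not pass the test. Of 5 complement genes tested, 4 fell. The central component C3 stood at 1.96 and 0.742 CPM against 7.003 and 15.6, and C4b at 4.15 and 2.35 against 15.1 and 15.8. At 10 CPM or more C3 was present in 4 and 1 G2/M cells of 77 each and in 14 and 25 non-cycling cells, so its sums rest on few cells.

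Nuclear noncoding RNAs were lower in G2/M cells in all 3 cases tested. Malat1, which gathers at nuclear speckles, stood at 436 and 323 CPM in G2/M cells and at 1088 and 926 CPM in non-cycling cells (log2 fold change -1.42, SE 0.07, adjusted p = 8.24e-06). Within Venus gates its log2 fold change was -1.30 (adjusted p = 7.42e-05). Split by the scoring genes, as a description, the G2/M cells of plate 1 with 4 or more markers held 312 CPM and those with 2 or fewer 619 CPM, whereas on plate 2 the values were 345 and 241 CPM. Neat1, the scaffold of paraspeckles, stood at 1040 and 1164 CPM against 1269 and 1496, and Kcnq1ot1, an imprinted antisense RNA whose counts may include reads of its host gene, at 39.3 and 39.3 against 53.2 and 60.04.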
